A study of Mus musculus with 80 samples.

Results

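The natural killer complex is a run of lectin-like receptor genes on mouse chromosome 6, and it is described here with the other genes that carry the same names. Members are the protein-coding genes on mouse autosomes (mm10) with a symbol that starts with Klr or Clec. By that rule 60 of 20558 genes were members. A further 2, Klra16 and Klra23, are listed on scaffolds outside the primary chromosomes and are not counted. Members were grouped by position. The longest run on chromosome 6 with gaps of at most 1 Mb held 38 members, from Klrb1a to Klra2 (chr6:128609227-131247716), and is called the natural killer complex. A second run on chromosome 6 holds 10 members, Klrg1 and the Clec4 genes from Clec4a1 to Clec4e, and is called the Clec4 group. On the same chromosome 4 members lie elsewhere, the adjacent pair Klrg2 and Clec2l and the single genes Clec5a and Clec4f. The other 8 lie on chromosomes 7, 8, 9, 11, 12 and 16.

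The study profiled H3K27me3, trimethylated lysine 27 of histone H3, by CUT&RUN in bead-purified fibroblasts of mouse uterus, and asked how loss of the demethylase gene Kdm6b and early pregnancy alter the mark. In the Kdm6b set, controls carried floxed Kdm6b (Kdm6b f/f), and conditional knockouts (cKO) carried in addition Pgr-Cre, which is driven by the progesterone receptor gene, or Pdgfra-Cre, which is driven by a gene of fibroblasts and other mesenchymal cells. All females of the set therefore carry the floxed alleles, and the Cre lines delete in other uterine cells too. Females of this set had been mated with B6 males, and fibroblasts came from inter-implantation site tissue (IIS) at gestation day (GD) 5.5, GD8.5 or GD14.5, or from implantation site tissue (IS) at GD14.5 or GD18.5, with a Pdgfra-Cre cKO and its own control at GD14.5 IS. A separate set of B6CBAF1/J females held uterus at GD0.5, IIS at GD5.5 after natural mating, uterus at GD5.5 where the male had been vasectomized, and uterus of non-pregnant females given progesterone for 3 days. Each of the 16 groups has 1 deposited peak list made from 3 samples, so a list carries no spread of its own and the unit of every test below is a pair of lists. Coverage is the share, in percent, of the bases of a gene and its 2 kb flanks that fall inside merged peaks, and a difference between lists is given in percentage points with control subtracted from cKO.

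H3K27me3 is laid down by Polycomb repressive complex 2 and marks genes that are kept silent in a cell type, and KDM6B removes it. Klr genes encode the receptors by which natural killer cells, the most abundant lymphocytes of the early pregnant uterus, sense MHC class I molecules and stress ligands on other cells, and Clec genes encode C-type lectin receptors, many of them of dendritic cells, macrophages and neutrophils. Fibroblasts use few of these genes. In a bulk preparation, the share of cells that carry the mark at a gene and the amount of mark per cell cannot be told apart.

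Promoter sequences are shown for members whose coverage the results turn on, with RefSeq coordinates in GRCm38.p6, the sequence on the strand of the gene, each run being 300 bases around the annotated start. Capitals mark the dinucleotide CG, which reads the same on both strands. Of the 60 members, 50 matched an entry. The first pair shows the promoter of Klrk1 (chr6:129623815-129624114, minus strand), which overlapped a peak in 6 of 6 control lists and 1 of 6 cKO lists, and that of Clec9a (chr6:129408612-129408911, plus strand), which did so in 1 and 4.
Klrk1: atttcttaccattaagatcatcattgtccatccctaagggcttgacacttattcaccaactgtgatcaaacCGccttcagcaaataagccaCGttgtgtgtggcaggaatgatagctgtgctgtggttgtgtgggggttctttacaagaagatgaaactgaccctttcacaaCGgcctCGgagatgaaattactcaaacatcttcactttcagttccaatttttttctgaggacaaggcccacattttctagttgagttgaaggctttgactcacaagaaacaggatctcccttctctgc
Clec9a: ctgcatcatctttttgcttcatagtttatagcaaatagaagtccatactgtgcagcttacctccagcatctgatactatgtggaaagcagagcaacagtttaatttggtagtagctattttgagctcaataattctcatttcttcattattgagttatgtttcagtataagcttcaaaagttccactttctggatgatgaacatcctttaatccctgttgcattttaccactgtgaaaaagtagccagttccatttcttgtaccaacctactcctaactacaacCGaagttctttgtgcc
The next 3 are picked examples with different numbers of CG, and the correlation over all matched members is given below. Klrb1b (chr6:128826266-128826565, minus strand) has 7 and lay in a peak in every list, Clec2d (chr6:129180365-129180664, plus strand) has 5 and lay in none, and Clec2l (chr6:38662819-38663118, plus strand), with 29, lay in a peak in every list.
Klrb1b: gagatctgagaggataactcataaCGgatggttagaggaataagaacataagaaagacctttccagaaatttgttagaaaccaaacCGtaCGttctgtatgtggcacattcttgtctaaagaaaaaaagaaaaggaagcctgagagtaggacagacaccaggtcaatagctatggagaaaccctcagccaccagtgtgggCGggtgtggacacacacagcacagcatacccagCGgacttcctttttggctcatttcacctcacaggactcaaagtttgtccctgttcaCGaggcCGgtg
Clec2d: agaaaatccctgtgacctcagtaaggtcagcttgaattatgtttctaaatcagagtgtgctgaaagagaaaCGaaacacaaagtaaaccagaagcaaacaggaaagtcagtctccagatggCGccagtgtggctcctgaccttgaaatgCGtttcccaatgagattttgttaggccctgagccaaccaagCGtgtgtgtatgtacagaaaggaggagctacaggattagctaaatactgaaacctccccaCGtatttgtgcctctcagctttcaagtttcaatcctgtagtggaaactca
Clec2l: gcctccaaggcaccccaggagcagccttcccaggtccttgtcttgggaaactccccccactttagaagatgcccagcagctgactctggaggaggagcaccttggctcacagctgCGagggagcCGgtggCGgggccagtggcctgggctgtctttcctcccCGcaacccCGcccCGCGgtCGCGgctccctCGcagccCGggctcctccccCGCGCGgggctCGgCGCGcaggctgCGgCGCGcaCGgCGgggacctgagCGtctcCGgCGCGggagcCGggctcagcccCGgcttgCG
The last 2, of Klra9 (chr6:130193063-130193362, minus strand) and Klra3 (chr6:130337577-130337876, minus strand), were identical at 90.3% of aligned positions, the closest pair among the 11 Klra promoters, and lay in no peak in any list.
Klra9: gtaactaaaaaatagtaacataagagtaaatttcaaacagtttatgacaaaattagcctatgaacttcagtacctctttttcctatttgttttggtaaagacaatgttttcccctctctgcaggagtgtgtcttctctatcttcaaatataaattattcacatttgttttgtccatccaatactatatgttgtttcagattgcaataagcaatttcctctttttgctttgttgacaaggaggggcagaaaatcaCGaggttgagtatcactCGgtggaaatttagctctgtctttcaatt
Klra3: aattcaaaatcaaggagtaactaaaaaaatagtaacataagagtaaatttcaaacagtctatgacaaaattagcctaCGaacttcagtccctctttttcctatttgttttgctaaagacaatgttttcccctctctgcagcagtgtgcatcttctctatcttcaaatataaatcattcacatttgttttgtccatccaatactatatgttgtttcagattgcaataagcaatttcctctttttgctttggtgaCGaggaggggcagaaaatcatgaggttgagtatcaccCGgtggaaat

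Across the 34 matched promoters of the natural killer complex the median number of CG was 2 and the highest 7, against a median of 4 in the 16 matched promoters elsewhere and of 14 in all 17274 promoters of the table. At least 1 CG was found in 91.2% of the promoters of the complex and in 95.0% of all promoters. Counts of 10 or more were found in 3 members, Klrg2 with 12, Clec2l with 29 and Clec16a with 25, and in 57.9% of all promoters. Over the 50 matched members, which share lists and partly share sequence, the Spearman correlation of CG count with mean coverage over the 12 Kdm6b lists was 0.32. Near-identical copies lie within the complex, and reads may have been split or dropped among them: of the 50-base words of the Klrc3 promoter, 60.6% also occur in another promoter, as do 45.02% of those of Klra9, 44.6% of those of Klrc2, 28.7% of those of Clec2h, 15.5% of those of Klra10 and 10.4% of those of Klra3. How far such sharing set the values below was not tested.

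A Kdm6b list held 221218 to 287521 peaks over 608.9 to 739.6 Mb and a B6CBAF1/J list 131841 to 167482 peaks over 680.2 to 704.1 Mb. The sources used here give no read depth. The peaks at these genes were weak. No member of the natural killer complex had a peak with a -log10 q of 2 or more in any list, the highest being 1.23 at Klrb1b, and 2 of the 60 members (3.33%), Klrg2 and Clec2l, had one in the Kdm6b set, against 11.4% of autosomal genes. At the 10 members that fell in the test below, the strongest peak in any control list was weaker still. Its -log10 q ranged from 0.029 at Clec4a2 to 0.479 at Clec5a, with 0.13 at Klrk1 and 0.262 at Klrb1. The differences below thus compare the extent of peaks that are not significant one by one. The fibroblast label was checked against 8 marker genes, whose median coverage was 0 in control, cKO and B6CBAF1/J lists and whose mean ranged from 1.16% to 4.33% over control lists and from 1.66% to 4.26% over cKO lists. All of it came from Pdgfra, the gene that drives one of the Cre lines, with means of 22.9% in control, 23.4% in cKO and 31.01% in B6CBAF1/J lists, and the other 7 were at 0. Marker lists of other cells were marked more widely in control lists, with medians of 80.1% for 8 natural killer cell genes, 92.1% for 6 T cell genes, 55.9% for 8 myeloid genes, 98.3% for 6 epithelial genes, 93.8% for 6 trophoblast genes, 20.6% for 6 smooth muscle genes and 13.1% for 6 endothelial genes. In cKO lists these medians were 79.97%, 93.7%, 58.0%, 97.0%, 86.8%, 18.2% and 20.03%, and Prf1, Cdh1 and the endothelial gene Tek rose. Whether other cells had a part in the results below was not tested.

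Coverage along the natural killer complex was a mosaic of long marked blocks and empty stretches rather than an even level. Averaged over the 12 Kdm6b lists, 10 of the 38 members had at least 50% coverage, 14 had under 5%, and 7 had no peak in any list. Klrb1b, an inhibitory receptor, had a control median of 97.1% (84.6% to 100%), and Clec2m had 96.8% (88.9% to 100%). Clec7a, the beta-glucan receptor Dectin-1, had a control median of 95.3% (84.6% to 95.6%), Klre1, a receptor of natural killer cells, 89.2% (88.1% to 94.3%), and Klrb1f 83.7% (80.2% to 89.1%). Clec2d, which encodes the ligand of Klrb1b, was at 0 in all 16 lists although it lies between Klrb1f and Clec2m, and so was Gabarapl1, an autophagy gene between Clec7a and Klre1 that is no family member. Cd69, a lectin-like activation marker inside the complex, had a mean of 89.9% in control lists and 69.2% in cKO lists (difference -20.8 points, limma adjusted p = 0.106).

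**Figure D1:**
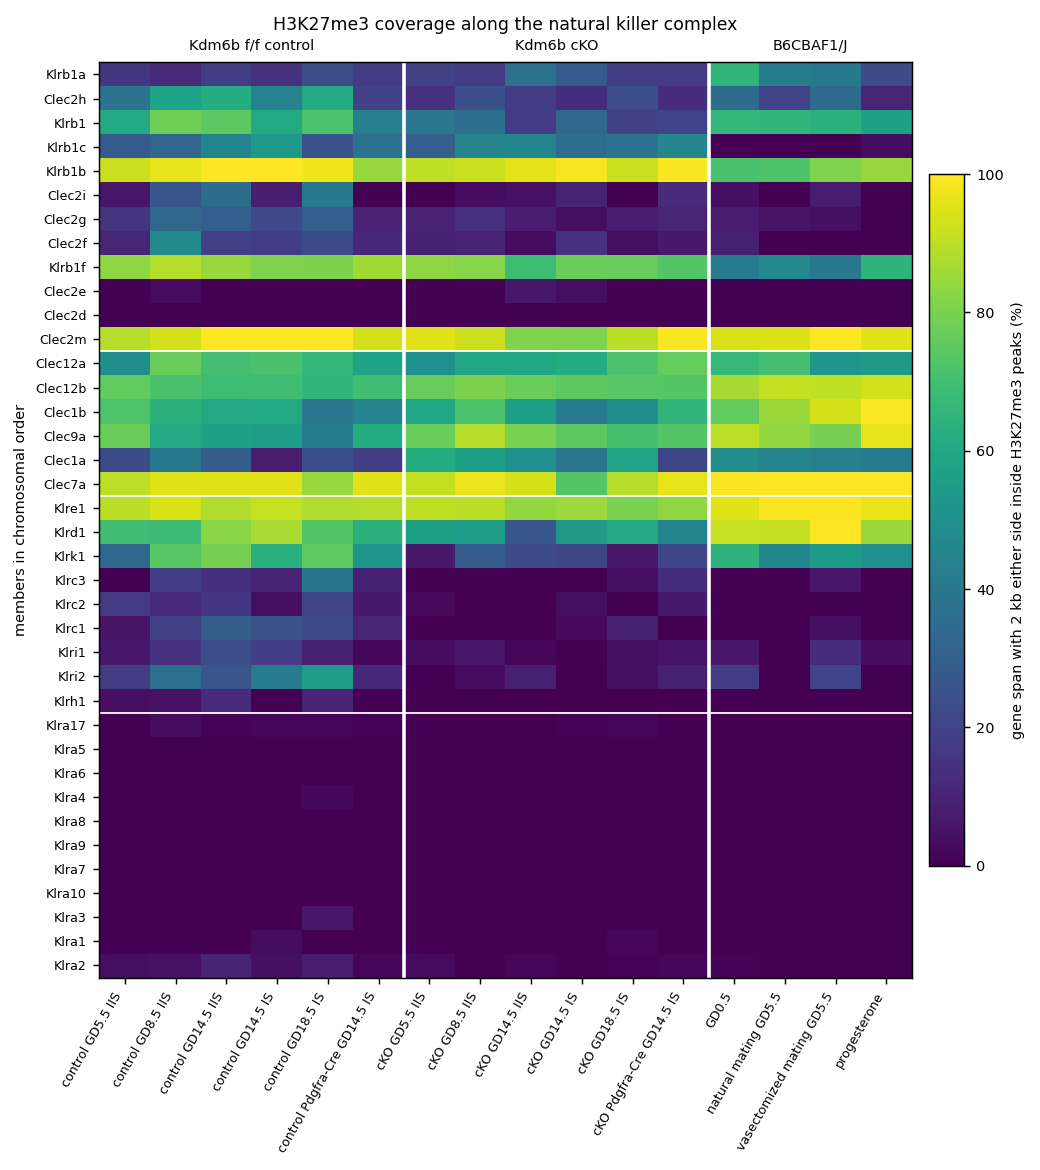
Heat map of coverage (percent, colour) for the 38 members of the natural killer complex in chromosomal order (rows) in the 6 control, 6 cKO and 4 B6CBAF1/J lists (columns). Marked blocks alternate with members at or near 0, and the 11 Klra genes at the bottom are at 10.03% or less in every list.

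The Klra genes, which encode the Ly49 receptors for MHC class I, lay almost wholly outside the called peaks. The mean over the 11 genes was 0.79% in control lists and 0.17% in cKO lists. Klra5, Klra6, Klra8, Klra9, Klra7 and Klra10 were at 0 in all 16 lists, Klra8 being the activating receptor Ly49H. Klra2, at the far end, had the highest value of the 11, 10.03% in the GD14.5 IIS control. Klra9 and Klra3 share promoter sequence, as given above, but they are the closest pair. Over the 11 Klra promoters, 0 to 45.02% of the 50-base words also occur in another promoter, with a median of 0. The part of near-identical copies in these low values was not tested. None of the 11 reached the mean coverage of 5% required for testing. Between Klra5 and Klra1, 0 to 0.56% of the bases lay in peaks in control lists and 0 to 0.37% in cKO lists, against 28.4% to 40.6% and 28.2% to 31.3% between Klrb1a and Klrh1.

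The main comparison asked how coverage of these genes differs between cKO and control over the 6 pairs of lists. Of 60 members, 42 had a mean coverage of at least 5% over the 12 lists and were tested with limma among 10205 genes, where a Benjamini-Hochberg adjusted p under 0.05 over all tested genes counts as a rise or fall. Of the 42, 10 fell and 3 rose, 29 did not pass, and 23 had an unadjusted p under 0.05. Among all tested genes 6.45% fell and 7.99% rose, and among the 9384 tested autosomal genes 5.21% fell and 8.67% rose. All 6 cKO lists lay below all 6 control lists for 6 members, Clec4a3, Clec4a2, Klrb1, Klrd1, Klrk1 and Klri2, and for 2.26% of tested autosomal genes. The reverse held for 0 members and for 4.12% of tested autosomal genes. In the natural killer complex 24 members were tested, 6 fell and 3 rose, and elsewhere 18 were tested, 4 fell and 0 rose. Of the 10 that fell, 4 had a cKO mean under 5% and passed the filter only through the control lists, Clec4a2, Klrc1, Klri2 and Clec4a4. With no filter on mean coverage 5 of the 10 kept their call, Klrk1, Klrb1, Clec2h, Klrc1 and Clec4a4, and Clec4a2, Clec4a3, Clec5a, Clec2g and Klri2 lost it, with limma adjusted p of 0.0604, 0.0542, 0.0583, 0.0665 and 0.0676. The calls were sensitive to the number of pairs: Klrk1 kept its call with any 1 pair left out, Klrb1 lost it only without GD8.5 IIS, and the number that fell was 3 without GD14.5 IIS, 2 without GD14.5 IS, 2 without GD18.5 IS, 5 without GD5.5 IIS, 1 without GD8.5 IIS and 10 without the Pdgfra-Cre pair. Over all tested genes the number that fell was 658 with all pairs. With pairs left out in the same order it was 226, 257, 233, 338, 191 and 608. The drop in calls was thus not particular to the members.

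**Figure D2:**
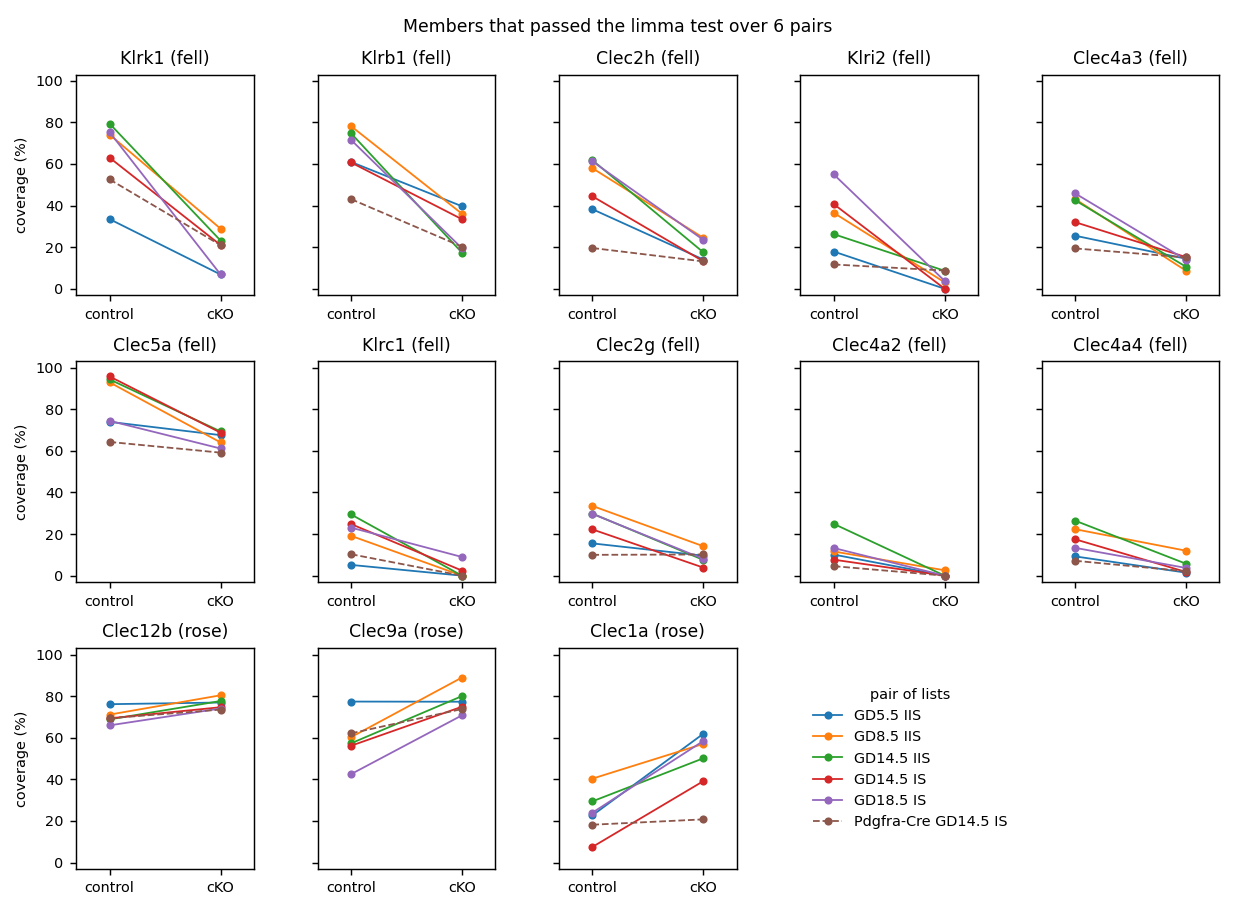
Coverage in percent (vertical axis) of the 13 members that passed the limma test, in control and cKO lists (horizontal axis), with each line joining the 2 lists of a pair and the dashed line the Pdgfra-Cre pair. Klrk1 and Klrb1 are lower in cKO in all 6 pairs with no overlap of the groups, and Clec1a is higher in all 6.

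In the segment from Klre1 to Klrh1, 3 of 8 tested members fell, Klrk1, Klrc1 and Klri2, and 0 rose. Of tested autosomal genes 5.21% fell and 8.67% rose. Klrc1 and Klri2 passed the filter only through the control lists, so a fall was the only call open to them. No support is drawn from their calls or from a lack of overlap. Klrk1 encodes NKG2D, the activating receptor for stress ligands, and its coverage was 33.5%, 68.6% and 79.4% (lowest, median and highest of 6 control lists) against 6.88%, 21.01% and 28.9% in the 6 cKO lists. Every control list was above every cKO list, and the mean difference was -45.01 ± 15.5 points (SD, n = 6 pairs, limma adjusted p = 0.0107). The difference ranged from -68.4 points at GD18.5 IS to -26.6 at GD5.5 IIS. At equal covered length, where each list is brought to the same number of marked bases from its lowest p upward, the mean difference at Klrk1 was -23.98 with a limma adjusted p of 0.077, and in a window of 2 kb around the start site -47.85 with a limma adjusted p of 0.0864.

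Klrd1, which encodes CD94, the partner chain of the NKG2 receptors, lies between Klre1 and Klrk1. Its values were 64.3%, 71.4% and 87.4% in control lists (lowest, median and highest) and 27.3%, 54.8% and 60.5% in cKO lists. The groups did not overlap, but the difference of -24.3 ± 17.1 points (SD, n = 6) did not pass (limma adjusted p = 0.0581). At equal covered length it was -34.8 with a limma adjusted p of 0.0176, and with genes that differed in no pair left out of the fit the adjusted p was 0.0400. Klre1, the neighbour on the other side, differed by -4.66 ± 2.97 points (SD, n = 6, limma adjusted p = 0.0553) and was at 79.9% or more in every Kdm6b list.

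Klrc1 encodes NKG2A, the inhibitory partner of CD94, and had 5.17%, 21.1% and 29.5% in control lists against 0, 0 and 8.99% in cKO lists (lowest, median and highest). It fell, with a difference of -16.8 ± 8.73 points (SD, n = 6, limma adjusted p = 0.0302), and was lower in 6 of 6 pairs, with the highest cKO list above the lowest control list. Klri2, a receptor gene further along the segment, had 11.7%, 31.4% and 55.0% against 0, 3.42% and 8.77%, with no overlap (-27.3 ± 17.7 points, SD, n = 6, limma adjusted p = 0.0485). Klrc2 and Klrc3, which encode the activating NKG2C and NKG2E chains, differed by -10.4 and -12.2 points and did not pass, nor did Klri1 at -8.89, and Klrh1, at 12.1% or less, was not tested. All 9 members of the segment had a lower mean in cKO lists, and the mean over the 9 was 35.8% in control and 18.6% in cKO lists. Of all 20558 autosomal genes, 5918 had a lower mean in cKO lists and 7519 a higher one. Apart from Klre1, Klrd1 and Klrk1, the members of the segment had cKO means under 5%, near the floor.

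In bins of 10 kb, the one centred 955 kb from the start of Klrb1a, in Klre1, was 98.4% covered in control and 93.0% in cKO lists on average, and the one at 975 kb, across the end of Klre1 and the start of Klrd1, 97.8% and 91.1%. The next, at 985 kb in Klrd1, had 68.0% and 39.8%, and the intergenic one at 995 kb 91.4% and 61.5%. In Klrk1 the bins at 1005 and 1015 kb had 63.4% and 58.0% in control lists against 22.3% and 12.5% in cKO lists. Beyond it, at 1045 kb in Klrc2, the values were 16.3% and 1.87%, and at 1065 kb in Klrc1 9.65% and 0. Control coverage was higher again further on, with 29.7% at 1115 kb and 30.1% at 1125 kb, across Klri2, against 6.75% and 2.18% in cKO lists. Of the 264 bins of the complex, 15 were at least 25 points higher in control lists and 2 at least 25 points higher in cKO lists, the 2 being at 635 kb and, within Clec1a, at 845 kb. The share over bins outside the complex was not computed, so these counts describe the complex alone.

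**Figure D3:**
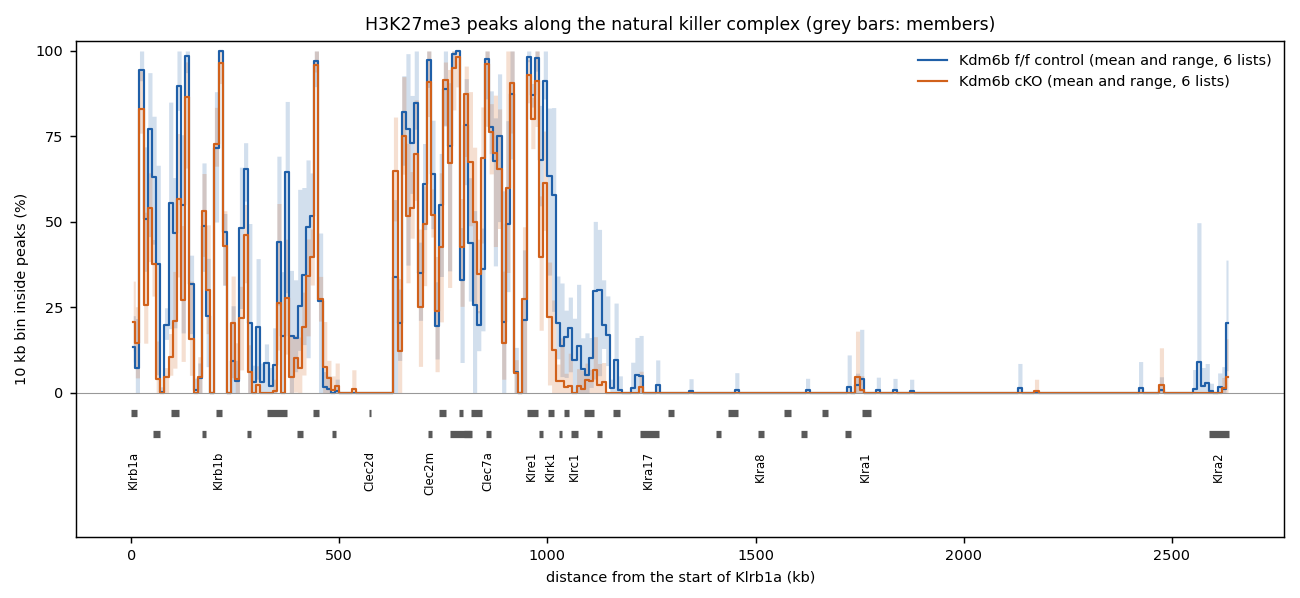
Percent of each 10 kb bin inside peaks (vertical axis) by distance from the start of Klrb1a in kb (horizontal axis), as the mean (line) and range (shading) of the 6 control and the 6 cKO lists, with members as grey bars. The lines separate between Klrd1 and Klrh1 and around Clec2h and Klrb1, and both lie near 0 over Clec2d and the Klra genes.

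In the Klrb1 and Clec2 segment, where receptors of the NKR-P1 family lie beside the Clec2 genes that encode ligands for several of them, 3 of 10 tested genes fell and 0 rose. The shares of tested autosomal genes were 5.21% and 8.67%. Klrb1 had 43.1%, 66.3% and 78.2% in control lists and 17.4%, 26.9% and 39.7% in cKO lists (lowest, median and highest), with no overlap. Its difference was -37.2 ± 15.6 points (SD, n = 6, limma adjusted p = 0.0171), the second largest among members that passed. Clec2h had 19.6%, 51.2% and 61.8% against 13.2%, 15.8% and 24.5%, a difference of -29.6 ± 13.2 points (SD, n = 6, limma adjusted p = 0.0205), with the Pdgfra-Cre control inside the range of the cKO lists. Clec2g differed by -14.6 ± 9.37 points (SD, n = 6, limma adjusted p = 0.0485) and was lower in 5 of 6 pairs, the exception being the Pdgfra-Cre pair at 0.17.

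The other members of the segment did not pass or were not tested. Klrb1c, which encodes NK1.1, the marker antigen of natural killer cells in C57BL/6 mice, had 25.1%, 35.1% and 54.2% in control lists and 30.4%, 41.7% and 45.9% in cKO lists, so that the groups overlapped widely (limma adjusted p = 0.705). Klrb1b differed by -0.519 ± 7.43 points (SD, n = 6, limma adjusted p = 0.954) and Klrb1f by -7.03 ± 6.10 points (SD, n = 6, limma adjusted p = 0.100). Clec2f and Clec2i, 2 further genes of the segment, differed by -14.0 and -14.5 points, and Klrb1a by 5.97, none past the threshold. Clec2e, at 6.69% or less in the set, was not tested.

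Clec1a, Clec9a and Clec12b were the 3 members that rose, and they lie together. Clec9a is the receptor by which dendritic cells detect dead cells, and Clec12b is an inhibitory receptor of myeloid cells. Clec1a had 7.47%, 23.3% and 40.3% in control lists against 20.7%, 53.6% and 61.9% in cKO lists (lowest, median and highest), and was higher in 6 of 6 pairs by 24.2 ± 13.6 points (SD, n = 6, limma adjusted p = 0.0352). The 2 groups overlapped, with the Pdgfra-Cre pair differing by 2.57 points. Clec9a had 42.5%, 58.8% and 77.4% against 70.7%, 76.1% and 88.9%, a difference of 18.3 ± 11.0 points (SD, n = 6, limma adjusted p = 0.0408), and Clec12b differed by 6.08 ± 3.28 points (SD, n = 6, limma adjusted p = 0.0369).

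The 3 rises are not separate measurements. The annotated span of Clec12b contains Clec1b and Clec9a and overlaps the edge of Clec1a, and the Spearman correlation of Clec12b with Clec9a over the 12 lists was 0.97. With GD8.5 IIS, GD14.5 IIS, GD14.5 IS or GD18.5 IS left out 0 members rose, against 2 without GD5.5 IIS and 1 without the Pdgfra-Cre pair. Over all tested genes 815 rose with all pairs, and 402, 479, 415, 469, 518 and 514 with pairs left out in that order. At equal covered length, and with no flank, 0 members rose, with Clec1a then at 9.21 points (limma adjusted p = 0.279) and 21.5 points (limma adjusted p = 0.0524). Clec1b, the podoplanin receptor of platelets, lies within the same span and differed by 0.279 ± 15.5 points (SD, n = 6, limma adjusted p = 1.0). Clec12a, an inhibitory receptor of myeloid cells, had 49.9%, 68.1% and 77.2% in control and 50.4%, 60.9% and 76.2% in cKO lists, and Clec7a differed by -2.76 ± 9.79 points (SD, n = 6, limma adjusted p = 0.675).

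In the Clec4 group, a set of myeloid receptor genes beside the natural killer cell and T cell receptor gene Klrg1, 3 of 8 tested members fell and 0 rose. Of tested autosomal genes 5.21% fell and 8.67% rose. Clec4a2 and Clec4a4 passed the filter only through the control lists, so a fall was the only call open to them. No support is drawn from their calls or from a lack of overlap. Clec4a3 had 19.4%, 37.3% and 45.9% in control lists and 8.64%, 14.1% and 15.2% in cKO lists (lowest, median and highest), with no overlap (-21.8 ± 12.8 points, SD, n = 6, limma adjusted p = 0.0383). Clec4a2, which encodes the inhibitory receptor DCIR, had 4.57%, 10.9% and 24.9% against 0, 0 and 2.58%, again with no overlap (-11.6 ± 7.12 points, SD, n = 6, limma adjusted p = 0.0439). Clec4a4 had 7.15%, 15.4% and 26.4% against 1.44%, 2.90% and 11.98% (-11.6 ± 5.70 points, SD, n = 6, limma adjusted p = 0.0274).

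Clec4d and Clec4e, which encode the partner receptors MCL and Mincle for mycobacterial glycolipid, varied most between control lists. Clec4d had 8.72%, 55.6% and 77.6% in control lists and 0, 11.6% and 14.6% in cKO lists, and was lower in 6 of 6 pairs, yet the spread of differences, from -66.8 to -0.029 points, left it short of the threshold (-38.4 ± 28.7, SD, n = 6, limma adjusted p = 0.0675). It passed in 4 of the alternative fits, with adjusted p of 0.0456 with 5 kb flanks, 0.0456 without genes that differed in no pair, 0.0404 after subtraction of the median difference and 0.0481 without the replicate block. Clec4e had 0, 21.5% and 70.8% against 0, 6.11% and 13.0% (limma adjusted p = 0.130). Clec4a1 had 46.0%, 70.1% and 86.8% against 13.0%, 40.9% and 87.8% (limma adjusted p = 0.257), and Clec4b2 differed by -14.2 points (limma adjusted p = 0.112). Clec4b1, which had no peak in any cKO list and up to 20.3% in control lists, was below the filter. Clec4n, which encodes Dectin-2, was at 10.3% or less in every list of the set and was not tested, and Klrg1 was at 91.6% or more throughout (limma adjusted p = 0.334).

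Of the other chromosome 6 members, Clec5a, a DAP12-coupled receptor of myeloid cells, fell. It had 64.3%, 83.7% and 95.8% in control lists and 59.1%, 65.8% and 69.3% in cKO lists (-17.6 ± 10.7 points, SD, n = 6, limma adjusted p = 0.0416), lower in 6 of 6 pairs though the groups overlapped. Clec4f, a lectin of Kupffer cells, had 2.57%, 18.52% and 25.5% against 5.87%, 20.5% and 35.2% (limma adjusted p = 0.569). Klrg2 and Clec2l, an adjacent pair, differed by -1.57 and 3.85 points (limma adjusted p = 0.590 and 0.484), with control medians of 37.04% and 71.02%. Their promoters have 12 and 29 CG, against a median of 14 over all promoters.

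On the other chromosomes 6 of 8 members were tested, and 0 fell and 0 rose. Clec3a, a cartilage lectin gene, was at 100% in all 16 lists. Clec3b, which encodes tetranectin, a protein that fibroblasts secrete, was at 0 in all 16. Clec10a, a galactose-type lectin of macrophages and dendritic cells, had 87.3%, 92.2% and 100% in control lists and 77.6%, 89.98% and 100% in cKO lists (limma adjusted p = 0.575). Clec18a had 71.4%, 78.02% and 80.8% against 64.9%, 72.8% and 78.5% (limma adjusted p = 0.192). Clec4g, a lectin of liver sinusoidal endothelium, had 88.7%, 96.3% and 100% against 86.3%, 89.6% and 95.2%, lower in 6 of 6 pairs and not past the threshold (-4.95 ± 3.97, SD, n = 6, limma adjusted p = 0.0886). It passed with 5 kb flanks (limma adjusted p = 0.0403) and at equal covered length (0.0226).

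Low members of that set were Clec11a, a secreted growth factor gene of bone, at 17.3% or less, Clec16a, an endosomal gene that every cell type uses, at 1.37% or less, and Clec14a, an endothelial receptor, at 0 to 10.4% in control and 0 to 20.6% in cKO lists. Clec14a differed by 7.19 ± 6.08 points (SD, n = 6, limma adjusted p = 0.0941) and rose with 5 kb flanks, by 14.2 points (limma adjusted p = 0.0235).

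Set side by side with all peaks, both chromosome 6 runs had lower means in cKO lists, and the members on other chromosomes had nearly equal ones. Mean coverage of the natural killer complex was 31.7% in control and 25.7% in cKO lists, a difference of -6.07 ± 3.79 points (SD, n = 6 pairs), lower in 6 of 6. In the Clec4 group it was 34.3% and 19.7% (-14.7 ± 10.7, SD, n = 6), lower in 6 of 6. For the 8 members on other chromosomes it was 46.6% and 46.5% (-0.18 ± 0.96, SD, n = 6), for all 22 members outside the complex 41.9% and 34.6% (-7.23 ± 6.02, SD, n = 6), and for all autosomal genes 22.8% and 22.7% (-0.03 ± 1.49, SD, n = 6). The other 1068 genes of chromosome 6 differed by -0.52 ± 1.84 points (SD, n = 6). The median over members of the mean difference was -1.62 in the complex, -12.9 in the Clec4 group, 0.00 on other chromosomes and 0.00 over all autosomal genes. These group means carry no test here, and the difference between the complex and the other loci was not tested.

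By pair, the complex differed by -2.75 points at GD5.5 IIS, -7.25 at GD8.5 IIS, -10.1 at GD14.5 IIS, -7.38 at GD14.5 IS, -8.71 at GD18.5 IS and -0.23 in the Pdgfra-Cre pair. In the Clec4 group the same pairs gave -4.93, -14.2, -32.5, -15.6, -18.3 and -2.55. Control lists ranged more widely than cKO lists, from 20.5% to 49.2% against 16.6% to 26.6% in the Clec4 group and from 26.3% to 35.1% against 24.5% to 27.8% in the complex. The Pdgfra-Cre pair had 519.8 Mb of autosomal peaks in its control list and 657.9 Mb in its cKO list, the widest gap of the 6 pairs. At GD14.5 IIS, where the complex differed most, the cKO list was the shorter, with 644.1 Mb in control and 621.1 Mb in cKO. Control and cKO lists had 582.5 and 617.0 Mb at GD5.5 IIS and 597.1 and 637.2 Mb at GD8.5 IIS. They had 612.4 and 687.2 Mb at GD14.5 IS and 625.6 and 654.6 Mb at GD18.5 IS. The part of covered length in these differences was not tested beyond the values at equal length that follow. At equal covered length the complex was lower in cKO lists in 6 of 6 pairs, by -4.95 to -2.65 points with -2.65 in the Pdgfra-Cre pair (mean -3.59 ± 0.85, SD, n = 6), and the Clec4 group in 6 of 6 (mean -8.05 ± 4.54, SD, n = 6). All autosomal genes then differed by -0.63 ± 0.59 points (SD, n = 6), and the members on other chromosomes by -3.22 ± 5.72 points (SD, n = 6). The latter mean was close to that of the complex, but it was lower in 4 of 6 pairs and reached -14.28 at GD8.5 IIS. The contrast between the complex and the other chromosomes thus held with all peaks only.

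**Figure D4:**
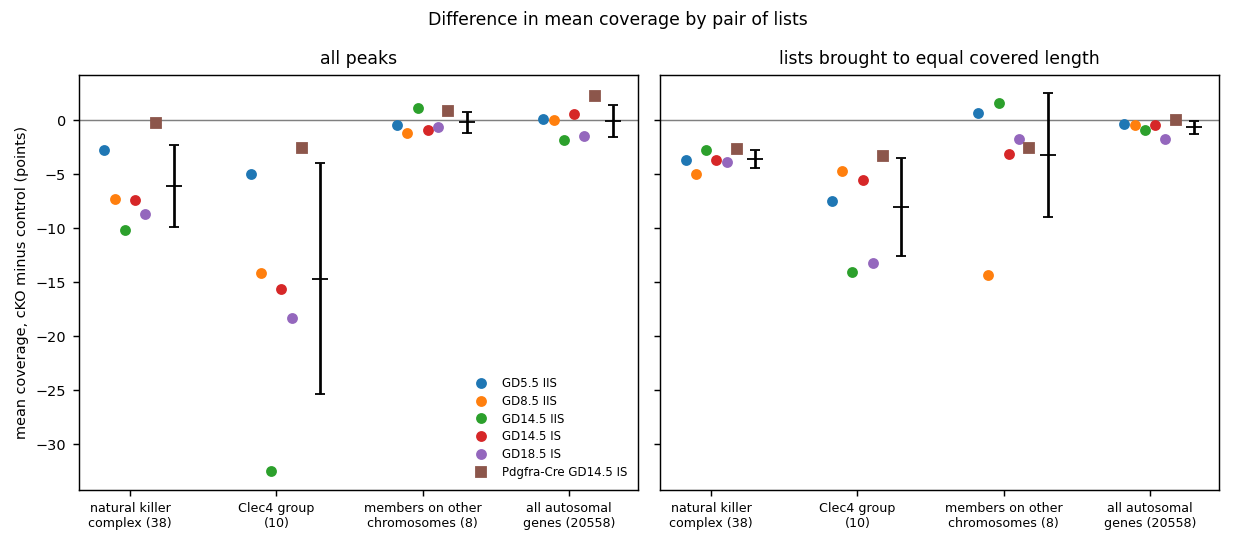
Difference in mean coverage, cKO minus control in percentage points (vertical axis), for the natural killer complex, the Clec4 group, the members on other chromosomes and all autosomal genes (horizontal axis), with all peaks (left) and at equal covered length (right). Points are pairs of lists (square: Pdgfra-Cre) and the black mark with bars is the mean ± SD of 6 pairs. Both chromosome 6 groups lie below 0 in every pair in either panel.

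Within single pairs, which have 1 list a side and no test, a member was counted as lost or gained at a difference of 50 points or more. In the GD14.5 IIS pair 6 members were lost, Clec4a1, Clec4d, Clec4e, Klrb1, Klrk1 and Klrd1, against 1.06% of autosomal genes, and in the GD18.5 IS pair 4, Klrk1, Klrb1, Klri2 and Clec4d, against 0.71%. Only Clec4d was lost in the GD8.5 IIS pair, against 0.613%. In the pairs of GD5.5 IIS, GD14.5 IS and Pdgfra-Cre GD14.5 IS 0 members were lost, against 0.229%, 0.511% and 0.0681%. Across the 6 pairs 0 members were gained, against 0.0924% of autosomal genes at GD5.5 IIS, 0.175% at GD8.5 IIS, 0.112% at GD14.5 IIS, 0.233% at GD14.5 IS, 0.0924% at GD18.5 IS and 0.238% in the Pdgfra-Cre pair. The largest loss was Clec4a1 at GD14.5 IIS, from 83.0% to 13.0%, and the values nearest to the threshold were -50.7 for Clec4d and -51.2 for Klri2 at GD18.5 IS inside it, and -49.7 and 48.9 for Clec4e between control lists outside it.

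Between control lists, the change from GD5.5 to GD8.5 at IIS was the largest for the family. Over the 60 members the mean difference was 7.31 points against -0.20 over autosomal genes, with 1 list a side and no test. Clec4d went from 19.7% to 73.3%, the only member to change by 50 points (0.272% of autosomal genes did so either way). From GD8.5 to GD14.5 at IIS, GD14.5 to GD18.5 at IS, and between IS and IIS at GD14.5, 0 members changed by 50 points, against 0.297%, 0.18% and 0.229% of autosomal genes. Mean differences of the members were 1.88, 1.80 and, for IS minus IIS, -5.04 points, against 2.04, 0.88 and -0.62 over all autosomal genes, so the first was no larger than that of all genes. Peak names inside the GD14.5 IS lists of the Pgr-Cre pair have another form than those of the other Kdm6b lists, so in the comparisons that use the control of this pair, site or day cannot be told apart from a separate run of peak calling. Clec4e had 0, 21.9% and 70.8% in the IIS controls of GD5.5, GD8.5 and GD14.5. The GD14.5 IIS control thus held the highest member mean of the set, 40.6%, and it is shared by 3 of the comparisons given here.

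In the B6CBAF1/J set Clec7a was at 99.6% to 100%, Klre1 at 95.3% to 99.4% and Clec2m at 94.1% to 100%, while no Klra gene exceeded 1.07%. Against GD0.5, 0 members changed by 50 points, and the share of all autosomal genes that did was 0.574% after natural mating, 0.564% after vasectomized mating and 1.09% after progesterone. Mean coverage of the complex was 29.99% at GD0.5, 27.89% after natural mating, 29.7% after vasectomized mating and 27.85% after progesterone, and that of the members elsewhere 38.7%, 37.9%, 41.5% and 37.1%. Klrk1 had 65.0%, 46.5%, 54.6% and 50.2% in that order, with GD0.5 the highest. Klrb1a had 65.6%, 42.0%, 40.3% and 22.9%, the largest decrease being -42.7 points with progesterone. Clec4f had 12.5%, 54.4%, 27.9% and 22.4%, the largest increase being 41.9 points after natural mating, and Clec14a had 33.9% at GD0.5 and 0 in the other 3 lists. Klrb1c was at 0 in 3 of these lists and 3.23% with progesterone, while its neighbour Klrb1b had 71.4% to 84.6%. With 1 list a group these differences have no replicate check.

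Likeness of pattern was described by the Spearman correlation of coverage over the 12 Kdm6b lists, which share peak caller settings and, by pairs, tissue. Control and cKO lists enter together, and Klrk1, Klrb1 and Klrc1 all fell. Members that are lower in cKO lists can therefore correlate with them through that difference alone. Likeness within control lists or within cKO lists was not tested. The members most like Klrk1 were Clec4a2 (0.94) and Clec4a4 (0.92), both in the Clec4 group more than 6 Mb away, and Clec2h (0.86). For Klrb1 they were Clec4a2 (0.92), Clec2f (0.89) and Clec2g (0.88), and for Klrc1 Klrd1 (0.90), Clec4a3 (0.83) and Klra17 (0.81).

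Other genes that work with these receptors were counted against the 6.45% of all tested genes that fell and the 7.99% that rose, and with 8 to 14 genes tested a list, counts of 0 or 1 are near those shares. Of 16 adaptor and signalling genes 10 were tested, 0 fell and 1 rose, Inpp5d, which encodes the phosphatase SHIP1 (59.2% to 66.6%, limma adjusted p = 0.0308). Of 16 ligand genes 8 were tested, 0 fell and 2 rose, among them Cdh1, the E-cadherin bound by KLRG1 (77.3% to 87.8%, limma adjusted p = 0.00415). Of 16 natural killer cell genes outside the family 14 were tested, 0 fell and 4 rose: Xcl1, a chemokine gene, from 41.7% to 86.3% (limma adjusted p = 0.00794), Prf1, perforin, from 4.31% to 25.8% (0.0259), Cd96, from 22.7% to 38.4% (0.0303), and Itga1, from 6.42% to 15.4% (0.0419). Each of these 4 was higher in 6 of 6 pairs.

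Genes for C-type lectin domain proteins under other names went both ways. Of 46 listed, 33 were tested, 7 rose and 4 fell, against 7.99% and 6.45% of all tested genes. Cd93, an endothelial and myeloid receptor gene, rose from 1.02% to 62.5% (limma adjusted p = 0.0170), Colec10, a collectin gene, from 16.5% to 41.3% (0.00794), and Reg4 from 32.6% to 58.4% (0.00197). Reg3g and Reg3b, antimicrobial lectin genes that lie on chromosome 6 too, fell from 67.0% to 14.8% (limma adjusted p = 0.0344) and from 47.4% to 16.7% (0.0463), Sftpd, a lung collectin gene, from 56.6% to 27.1% (0.0213) and Cd209a, a DC-SIGN relative, from 40.6% to 12.3% (0.0310).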

How the data were processed

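Broad peaks of H3K27me3 CUT&RUN were deposited as 16 lists. The submitters' processing notes name mm10, STAR 2.7.5c, Picard, samtools 1.10, bedtools 2.29.1, bedGraphToBigWig 2.8 and macs2 2.2.7.1. In the deposited lists a peak has a position, an enrichment over background (a ratio, called fold here), a -log10 p and a -log10 q. Every list was made by the authors from 3 samples, so 48 of 80 samples enter, and the other 32, of which 20 are inputs, were not analysed here. One Pgr-Cre cKO GD14.5 IS library has a title that calls it an input and an antibody field that does not, and counts among the inputs. Sequencing depth is unknown, and the spread over pairs of lists is the only measure of precision.

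Peaks were merged, and coverage was computed for 21521 RefSeq protein-coding genes of chromosomes 1 to 19 and X (GRCm38.p6, positions counted from 1). Pairs match by day, site and Cre line, which the labels give, 5 with Pgr-Cre and 1 with Pdgfra-Cre. Whether IS and IIS cells came from the same females is not stated, so p-values measure the spread between these lists. Genes with a mean of at least 5% were tested with limma 3.58.1 (R 4.3.3) on paired differences, with Benjamini-Hochberg adjustment over all of them and a threshold of 0.05. The procedure was tested on simulated data. Comparisons of 2 single lists have no test and use a size of 50 points. Python 3.11.15, numpy 2.4.6, pandas 2.3.3, matplotlib 3.10.9 and, for promoter identity, biopython 1.88 were used.

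Members were named if among the 12 with the smallest p of those that passed limma, the 5 highest in the complex or the 5 highest elsewhere in either set, the 3 largest gains or losses of at least 50 points in a comparison, or listed by role. Others are named to complete a count or after their values were seen. The members, gene lists and alternatives were chosen with earlier results of these data known. Alternatives were equal covered length (80% of the shortest list of the set), a -log10 q of at least 2, no flank, 5 kb flanks, merging across gaps under 1 kb, no filter, autosomes only, subtraction of the median difference, no pairing, Pgr-Cre pairs only, a variance trend with robust prior, other definitions of the cluster and its mean, 25 points, and each pair left out.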

Additional observations from a re-analysis of the deposited data

Results flagged for a closer look

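Over the 6 paired differences of the 42 tested members and of 2 group means, 5 of 44 had 1 pair far from the others by Dixon's criterion. Independent normal values give that in about 1 of 20. Coverage is bounded and the members share lists, so that rate need not hold here. The share of all tested genes flagged in this way was not computed, so no excess is shown. At Clec4a1 the GD14.5 IIS pair differed by -70.0 points and the next by -22.8. At Klrb1b the Pdgfra-Cre pair differed by 14.2 and the next by -1.26. At Clec7a the GD14.5 IS pair differed by -22.3 and the next by -2.24, at Clec10a the same pair by -14.6 and the next by -2.35, and at Clec11a the GD5.5 IIS pair by -11.2 and the next by 2.18.

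In 5 of these 44 the Pdgfra-Cre pair had the opposite sign to all 5 Pgr-Cre pairs, a difference that was not tested: Klrb1b (14.2 against -5.73 to -1.26 points), Clec4b2 (7.52 against -29.1 to -9.57), Klri1 (3.68 against -22.5 to -3.18), Clec2g (0.17 against -22.3 to -5.92) and the mean of the 22 members outside the complex (0.61 against -16.3 to -1.88). Over all autosomal genes the mean difference was 2.31 points in the Pdgfra-Cre pair and -1.85 to 0.61 in the Pgr-Cre pairs. The values of Clec2g and of the mean of the 22 members are smaller than that 2.31. The share of all tested genes with this sign pattern was not computed.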

How the results depend on the processing

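Among 569 values of 33 single members under other settings, 448 kept direction and side of the threshold, 89 lost a call, 14 gained one and 18 changed sign. Members that rose, 3 as reported, numbered 1 with the Pgr-Cre pairs only and 0 at equal covered length, with no flank, for peaks of -log10 q 2 or more (2 members tested) and in the start-site window, and 0 to 2 with a pair left out. Members that fell, 10 as reported, numbered 5 at equal covered length (3 shared), 5 with no filter, 0 at the higher q, 0 in the start-site window and 1 to 10 with a pair left out. Without the replicate block, that is without pairing, 12 fell (9 shared) and 2 rose. Over all tested genes, 815 rose and 658 fell of 10205 as reported. These numbered 267 and 374 of 8887 at equal covered length and 630 and 403 of 9266 with no flank. With no filter they were 707 and 442 of 14679, and without pairing 696 and 746 of 10205. Pgr-Cre pairs only gave 514 and 608 of 10252, the higher q 0 and 5 of 972, and the start-site window 11 and 2 of 8686. At equal covered length 29 members were tested, and at the higher q the loss of peaks left 2; the cause of the other shifts was not tested. The window of 2 kb around the start site and the fit without genes that differ in no pair were chosen after seeing the data. The mean difference of the complex, -6.07 as reported, was -2.27 with the median over members taken in each pair and then averaged, 0.00 at the higher q and -7.24 to -5.26 with a pair left out. Its coverage of 28.7% became 11.87% as a median, 20.88% at equal covered length and 0.00% at the higher q. Elsewhere the difference of -7.23 was -0.18 for members off chromosome 6 and -8.80 to -5.43 with a pair left out, and the coverage of 38.2% became 46.54% off chromosome 6, 25.03% with each base counted once, 22.12% as a median, 29.84% at equal covered length and 1.44% at the higher q. Losses in single pairs, 11 as reported, numbered 37 at 25 points, 6 at equal covered length, 1 at the higher q and 7 with 5 kb flanks, and gains, 0 as reported, 5 at 25 points. Changes between control lists, 1 as reported, numbered 12 at 25 points, 2 at the higher q, 4 with no flank and 3 with gaps merged. Changes in the B6CBAF1/J set, 0 as reported, numbered 10 at 25 points and 1 with gaps merged. For these losses, gains and changes, the share of all autosomal genes under the other settings was not computed. The counts therefore describe the members alone. Sign changes touched members that had not passed, and Clec12b. In the start-site window Clec4a1 was at 13.54, Clec12a at 15.70, Clec12b at -7.24 and Clec1b at -2.37. At equal covered length Klrb1c was at -1.74, Klrb1b at 0.22 and Clec1b at -1.89. Klrb1b was at 1.16 with gaps merged, and Clec1b at -3.93 with Pgr-Cre pairs only. With a pair left out, Klrb1b ranged from -3.47 to 0.52, Clec12a from -6.18 to 0.90, Clec1b from -3.93 to 4.38, Clec7a from -4.14 to 1.15, and Clec10a from -3.47 to 0.12. Depth being unknown, no limit of detection can be given.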
